A study of Mus musculus with 12 samples.

Results

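The genes described here encode high-mobility-group (HMG) proteins, the abundant small proteins that bind DNA or nucleosomes and are counted with the histones among the main structural proteins of chromatin. Of the 49585 genes in the count tables, 9 were taken by name: the HMG-box genes Hmgb1, Hmgb2 and Hmgb3, the AT-hook genes Hmga1 and Hmga2, the nucleosome-binding genes Hmgn1, Hmgn2 and Hmgn3, and Gm11645, a processed pseudogene of Hmgb1. Hmgb1 and Gm11645 were selected on their difference in counts between the genotypes in these same samples, so their values are given as a description with no test. The other 7 genes were then examined for whether they were lower together with Hmgb1, and the counts on Gm11645 for whether they made up for the counts missing on Hmgb1.

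HSCs were sorted from the bone marrow of 6 WT and 6 Pon2-/- mice as Lin-, Sca1+, ckit+, CD135- and CD150+ cells, a gate that the labels call LT-HSCs and the study describes as holding both LT-HSCs and MPP2 cells. WT mice were C57BL/6J animals from Charles River, and Pon2-/- mice, also labelled C57BL/6J, carry a gene trap with a β-geo cassette between loxP sites in intron 2 of Pon2, the gene of the antioxidative enzyme paraoxonase 2. Mice of both groups were 10 to 14 weeks old. The source of the Pon2-/- colony is not given in the sources used here, so colony and genotype cannot be told apart. From each mouse 8 wells of 10 cells were prepared by Smart-seq2, and the deposited table of a mouse holds 1 count per gene, so wells cannot be compared.

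HMGB proteins bend DNA through their HMG boxes and help transcription factors and repair complexes to assemble, and HMGB1 released from dying or stressed cells acts as an alarm signal on receptors such as RAGE and the Toll-like receptors. HMGA proteins bind AT-rich DNA in the minor groove, and Hmga2 is known for promoting self-renewal of fetal HSCs. HMGN proteins bind the nucleosome core and compete with linker histones, while Hmgb3 is known in HSCs for its part in the choice between self-renewal and differentiation.

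Hmgb1 (ENSMUSG00000066551.12) lies on the minus strand of chr5:149046702-149184489 and Gm11645 (ENSMUSG00000080895.1) on the minus strand of chr2:143506411-143507059, both in GRCm38, the build of all coordinates given. Gm11645 is annotated as 1 exon of 649 bases with no intron, as a retrotransposed copy of an mRNA has. The coding sequence of Hmgb1 from codon 121 to the stop codon (bases 361 to 648) and the part of Gm11645 aligned with it (bases 371 to 649) are shown because they set which reads can be told apart. Both are taken from GENCODE M21 transcripts, and capitals mark the 19 aligned bases at which the sequences differ.

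Hmgb1: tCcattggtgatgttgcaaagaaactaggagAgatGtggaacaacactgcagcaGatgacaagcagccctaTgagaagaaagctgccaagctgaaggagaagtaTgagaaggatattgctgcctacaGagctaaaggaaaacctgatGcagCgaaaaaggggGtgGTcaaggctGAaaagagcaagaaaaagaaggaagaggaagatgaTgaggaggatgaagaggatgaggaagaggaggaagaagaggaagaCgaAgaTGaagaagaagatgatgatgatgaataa

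Gm11645: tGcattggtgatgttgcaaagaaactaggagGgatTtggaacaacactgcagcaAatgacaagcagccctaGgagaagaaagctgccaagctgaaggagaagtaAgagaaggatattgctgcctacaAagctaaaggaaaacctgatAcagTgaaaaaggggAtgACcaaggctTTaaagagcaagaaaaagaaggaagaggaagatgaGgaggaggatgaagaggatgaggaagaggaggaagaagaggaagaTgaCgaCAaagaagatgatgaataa

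The alignment of Gm11645 with the whole coding sequence of 648 bases covered 639 bases with 29 substitutions and 3 gaps, an identity of 95.5%. With positions counted from 1 at the A of the Hmgb1 start codon, T2A removes the start codon, and T432G and T465A each place a stop codon in the frame of Hmgb1, at codons 144 and 155. Of the 575 windows of 75 bases in Gm11645, 15 (2.61%) also occurred in an annotated Hmgb1 transcript, and at a window of 100 bases none of the 550 did. With any other annotated gene Gm11645 shared 79 of the 575 windows (13.7%), mostly with the pseudogene Gm8556. A read of that length on most of Gm11645 is therefore distinct among annotated transcripts, whereas 37.3% of the windows of the Hmgb1 transcript recurred in at least 1 of 86 other genes, above all in the pseudogene Gm21596.

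The 12 tables held 12967791 to 24228280 counts over 13941 to 15656 genes, and 3 counts, the most that a count of 0 allows, were worth 0.121 to 0.235 CPM, the counts scaled to a library of 1000000 with edgeR's TMM factors. Pon2, the targeted gene, lay between 56.4 and 202 CPM in WT mice and between 1.16 and 33.1 CPM in Pon2-/- mice, with 28.4 CPM or more in all of the latter but replicate 5. All 9 markers of HSCs were detected, at a summed 2121 to 2685 CPM in WT mice and 2228 to 2650 CPM in Pon2-/- mice, and Flt3, which encodes CD135, reached 4.59 to 49.3 and 26.7 to 65.0 CPM. Of other lineages, the 5 T-lineage markers were at or near 0 (0 to 6.24 CPM in sum, Cd3e and Cd8a at 0 throughout), while the 8 granulocyte and monocyte markers summed to 878 to 9744 CPM in WT mice and 830 to 14870 CPM in Pon2-/- mice. In the same order the 6 B-lineage markers summed to 25.5 to 319 and 58.8 to 478 CPM, the 6 megakaryocyte markers to 174 to 238 and 108 to 267 CPM, and the 7 erythroid markers to 6.11 to 61.8 and 13.02 to 47.0 CPM. Of the 5 erythroid markers edgeR tested, 1 separated the genotypes, the beta globin gene Hbb-bt, which is named after its values were seen. Hbb-bt had 25.5 ± 13.2 CPM (6.11 to 38.1) in WT and 0.193 ± 0.450 CPM (0 to 1.11) in Pon2-/- mice (SD, n = 6 each). With edgeR the fold change was -7.04 on the log2 scale (SE 1.65) at an adjusted p of 0.265, but Hbb-bt was called by DESeq2 (adjusted p 1.03e-06) and limma voom (adjusted p 0.0109). DESeq2 also called Ctsg and Gp1bb lower and Cd4 higher in Pon2-/- mice, 1 marker each of the granulocyte and monocyte, megakaryocyte and T lists. The part of these cells in the HMG values was not tested, and in such bulk samples fewer cells of a type cannot be told apart from less RNA per cell.

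Hmgb1 was lower in Pon2-/- HSCs. It had 435, 546 and 629 CPM (lowest, median, highest) in WT and 188, 296 and 399 CPM in Pon2-/- mice. The highest Pon2-/- mouse, replicate 5, stood below the lowest WT mouse, replicate 2, so the genotypes did not overlap. The means were 544 ± 64.3 and 298 ± 70.7 CPM (SD, n = 6 mice each), which put the Pon2-/- mean at 54.9% of WT, a log2 fold change of -0.87 (SE 0.16) in edgeR's fit. These counts are large, 60641 in WT and 32993 in Pon2-/- mice, so counting error adds little to the spread between mice. As background for this choice, 29 of 11848 tested genes (0.245%) were lower in Pon2-/- mice with no overlap, and 24 (0.203%) passed a false discovery rate of 0.05 with a log2 fold change beyond 1, 9 of them (0.076%) lower in Pon2-/- mice. Hmgb1 is not among the 9, as its log2 fold change lies within 1.

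Gm11645 went the other way at a far lower level. It had 0, 1, 4, 0, 0 and 2 counts in the WT mice and 40, 67, 25, 26, 75 and 42 counts in the Pon2-/- mice, replicates 1 to 6 in turn. Every Pon2-/- mouse was above every WT mouse, and 3 of the 6 WT mice had no count. The means were 0.0562 ± 0.0707 and 2.42 ± 0.737 CPM (SD, n = 6 each), and the ratio of the summed counts was 39.3, with an exact 95% interval of 18.8 to 98.6 that covers counting error only. The fitted log2 fold change was 5.22 (SE 0.93), and Gm11645 passed the filter on low counts through the Pon2-/- mice alone. It belongs to the 15 genes (0.127%) called higher in Pon2-/- mice, which is what it was chosen for.

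**Figure D1:**
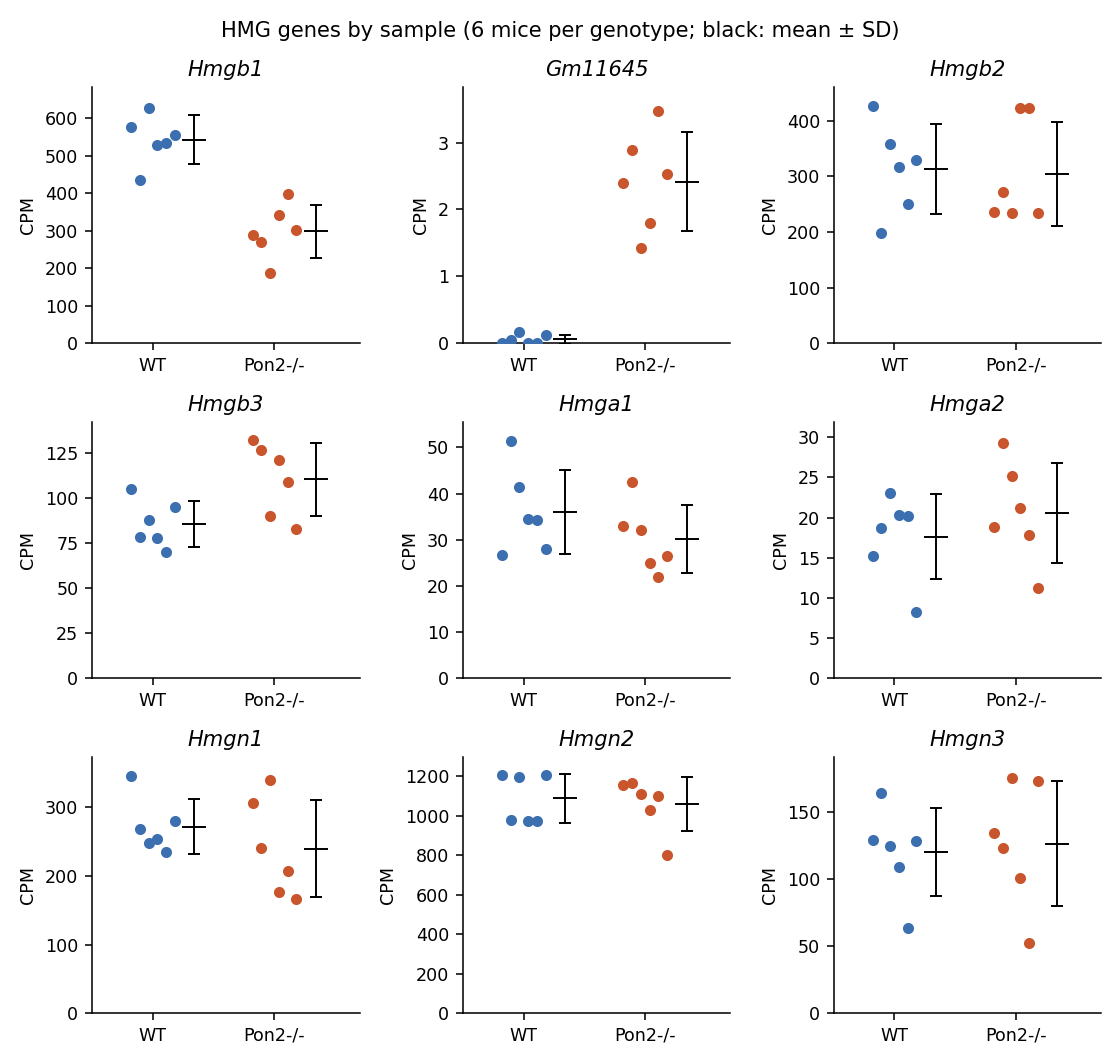
CPM (counts scaled to 1000000, linear axis from 0) of the 9 HMG genes in each of the 6 WT (blue) and 6 Pon2-/- (orange) mice, one panel per gene, with the mean and SD in black. Hmgb1 and Gm11645 separate the genotypes, with Pon2-/- means of 298 and 2.42 CPM against 544 and 0.0562 CPM in WT, and the points of the other 7 genes overlap.

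The counts on Gm11645 did not balance those missing on Hmgb1. Mean Hmgb1 was 245 CPM lower and mean Gm11645 2.36 CPM higher in Pon2-/- mice. The gain came to 0.963% of the loss, which was 104 times as large. Summed, both genes had 435, 546 and 629 CPM in WT mice and 190, 298 and 402 CPM in Pon2-/- mice, and the groups stayed apart. The mean of the sum in Pon2-/- mice was 55.3% of WT, against 54.9% for Hmgb1 alone. Gm11645 made up 0 to 0.0257% of the sum in WT and 0.524 to 1.06% in Pon2-/- mice.

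**Figure D2:**
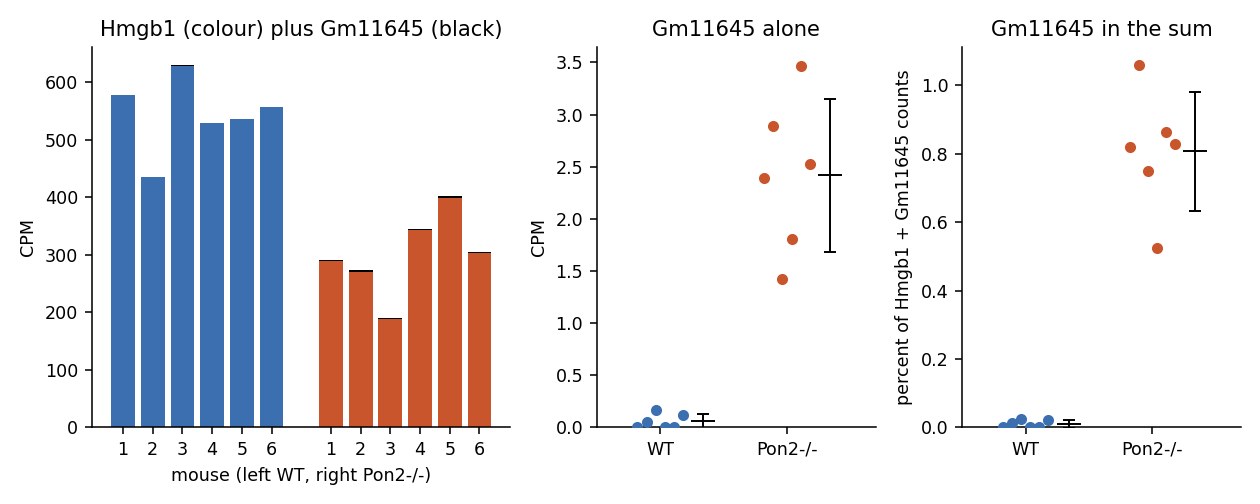
Left, CPM of Hmgb1 (coloured bars, blue WT, orange Pon2-/-) with Gm11645 stacked on top in black for each mouse; middle, CPM of Gm11645 alone; right, percent of the sum that lies on Gm11645, each with mean and SD in black. The black segment is at most 3.47 CPM high, beside sums of 190 to 629 CPM.

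Among the 6 Pon2-/- mice no stable relation between the levels of both genes could be read. As a description with no test, Pearson's r on the log2 scale was 0.70 and Spearman's rho 0.49, but without the 2 mice farthest from the median of Hmgb1 r turned to -0.96 over the other 4. The sign thus rests on those 2 mice. The lowest Hmgb1 (188 CPM) and the lowest Gm11645 (1.42 CPM) were both in replicate 3, the highest of each (399 and 3.47 CPM) both in replicate 5.

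Gm11645 is 1 of many copies. By sequence (at least 90% identity over at least 50% of the copy), 165 annotated genes were copies of a member, 119 of them of Hmgb1, and 125 of the 165 had a row in the count tables. Over the 12 mice 71 copies had at least 10 counts, among them 55 of Hmgb1. The 89 copies of Hmgb1 in the tables, Gm11645 included, summed to 17.5 ± 5.77 CPM in WT mice and 15.4 ± 3.45 CPM in Pon2-/- mice (SD, n = 6 each), and without Gm11645 to 17.4 ± 5.77 and 12.98 ± 3.83 CPM. Among the reads that were counted, the copies together thus did not add what Hmgb1 lacked either. Hmgb1 with all of them had 561 CPM in WT mice and 314 CPM in Pon2-/- mice, 55.9% of WT.

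Most Hmgb1 copies did not separate the genotypes. Of the 54 with at least 10 counts other than Gm11645, 31 had fewer counts in Pon2-/- mice, 19 had more and 4 had equal counts. Gm21596, whose transcript matches Hmgb1 at 99.5%, had 221 counts in WT and 134 in Pon2-/- mice, a log2 fold change of -0.76 (SE 0.45, edgeR adjusted p = 1). Gm3851 (143 and 109 counts) and Hmgb1-ps7 (112 and 72 counts) had log2 fold changes of -0.47 and -0.81, with an edgeR adjusted p of 1 for each. These are the 3 copies of Hmgb1 that could be tested beside Gm11645.

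Of the 71 copies with at least 10 counts, 2 had no overlap between genotypes, against 0.471% of the 19941 genes with as many counts. They were Gm11645, which was chosen for it, and Gm4587, also a processed pseudogene of Hmgb1, at chr7:132483658-132484294 in GRCm38. Gm4587 had no count in any WT mouse and 8, 9, 4, 5, 3 and 3 counts in the Pon2-/- mice. With the WT group set at 3 counts in all, the pooled Pon2-/- counts were 10.7-fold higher. This figure leaves out the counting error of the Pon2-/- counts and the spread between mice. Gm4587 fell below the filter on low counts and was not tested.

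Other copies owed their counts to 1 or 2 mice, or were uneven among all. Gm33882 had 128 counts in Pon2-/- against 18 in WT mice, but 50 and 65 of the 128 came from replicates 2 and 4. Hmgb1-ps6 had 71 against 11 counts, of which the same Pon2-/- replicates 2 and 4 gave 43 and 24. Gm7890 ran the other way, with 178 counts in WT and 2 in Pon2-/- mice, of which 114 came from WT replicate 3 and 50 from WT replicate 5. Gm5842 and Gm12568 were uneven within both genotypes, the former at 3 to 126 counts in WT and 1 to 120 in Pon2-/- mice, the latter at 0 to 68 and 0 to 27. None of these 5 passed the filter on low counts.

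**Figure D3:**
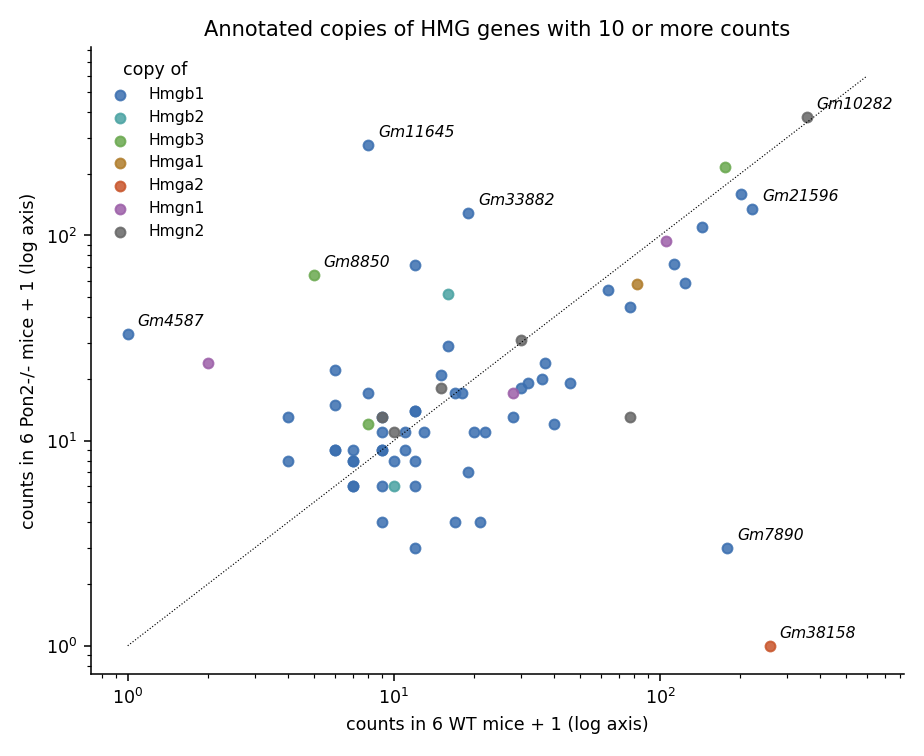
Summed counts over 6 WT mice (x) and 6 Pon2-/- mice (y), each plus 1 and on a log axis, for the 71 annotated copies of HMG genes with at least 10 counts, coloured by the gene they copy; the dotted line marks equal counts. Gm11645 (7 and 275 counts) and Gm4587 (0 and 32) lie far above the line, and Gm7890 (178 and 2) and Gm38158 (258 and 0) far below it.

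Hmgb2 (chr8:57511907-57515999, plus strand), a close relative of Hmgb1 and part of the SET complex, had nearly equal means in both genotypes. It had 199, 323 and 427 CPM in WT mice and 234, 254 and 424 CPM in Pon2-/- mice. Pon2-/- replicates 4 and 5 were at 423 and 424 CPM, close to the highest WT mouse, while the other 4 lay between 234 and 272 CPM. The log2 fold change was -0.044 (SE 0.22, 95% interval -0.52 to 0.43), with an edgeR adjusted p of 1 and a two-sided exact permutation p of 0.799. The interval does not reach the -0.87 of Hmgb1, though the difference between both genes was not tested.

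Hmgb3 (chrX:71555918-71560676, plus strand), the X-linked member, had the higher mean in Pon2-/- mice but did not pass the test. It had 70.2, 83.1 and 105 CPM in WT mice and 83.0, 115 and 132 CPM in Pon2-/- mice. Of the 6 Pon2-/- mice 4 lay above the highest WT mouse, and the other 2 (83.0 and 90.4 CPM) within the WT range. The Pon2-/- mean was 129% of WT, a log2 fold change of 0.37 (SE 0.18, 95% interval -0.031 to 0.76). The exact permutation p was 0.0325 before any adjustment and edgeR's p 0.0680, but the adjusted p over all tested genes was 1, so Hmgb3 was not called.

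Hmga1 (chr17:27556497-27563674, plus strand) and Hmga2 (chr10:120361275-120476469, minus strand), the AT-hook members, were the least abundant of the coding genes and the least precisely measured. Hmga1 had 26.7, 34.4 and 51.3 CPM in WT mice and 21.8, 29.3 and 42.5 CPM in Pon2-/- mice. Its log2 fold change was -0.26 (SE 0.36, 95% interval -1.03 to 0.51, edgeR adjusted p = 1, exact permutation p = 0.214). Hmga2 had 8.23, 19.5 and 23.1 CPM in WT mice and 11.2, 20.02 and 29.3 CPM in Pon2-/- mice, and in both genotypes replicate 6 was the lowest. Its log2 fold change was 0.22 (SE 0.51, 95% interval -0.88 to 1.33, edgeR adjusted p = 1, exact permutation p = 0.455). Both intervals are wide, and each still holds a change as large as that of Hmgb1 at its lower end.

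Hmgn2 (chr4:133964738-133968650, minus strand) was the most abundant member and the steadiest, with a coefficient of variation of 11.4% in WT and 12.9% in Pon2-/- mice. It had 973, 1086 and 1207 CPM in WT mice and 800, 1105 and 1167 CPM in Pon2-/- mice, where replicate 6 alone lay below the WT range. The log2 fold change was -0.039 (SE 0.12, 95% interval -0.29 to 0.21, edgeR adjusted p = 1, exact permutation p = 0.727). This is the narrowest interval of the 7.

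Hmgn1 (chr16:96120618-96127729, minus strand) had 235, 261 and 345 CPM in WT mice and 166, 224 and 340 CPM in Pon2-/- mice. The Pon2-/- mice spread more widely, with 3 of them (166, 177 and 208 CPM) below every WT mouse and replicate 3 (340 CPM) near the highest. The log2 fold change was -0.18 (SE 0.19, 95% interval -0.59 to 0.22, edgeR adjusted p = 1, exact permutation p = 0.266). Hmgn3 (chr9:83109948-83146685, minus strand) had 63.6, 126 and 164 CPM in WT mice and 51.9, 129 and 175 CPM in Pon2-/- mice, with replicate 5 lowest in each. Its log2 fold change was 0.076 (SE 0.29, 95% interval -0.54 to 0.70, edgeR adjusted p = 1, exact permutation p = 0.913).

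No other member was called, but a call needs a log2 fold change beyond 1, which Hmgb1 itself, at -0.87, does not reach. The counts of calls therefore cannot show whether another member was lower to the same degree as Hmgb1. The 95% intervals bear on that question. Of the 7 other genes 0 were called by edgeR, against 0.203% of all tested genes, and 0 had genotypes that did not overlap, against 0.633%. DESeq2, which called 1.79% of the genes it tested, and limma voom, which called 0.194%, also called 0 of the 7. No member of the 7 had an unadjusted edgeR p under 0.05, against 371 of all 11848 tested genes. Of their log2 fold changes 3 were above 0 and 4 below, with a median of -0.039 beside -0.0092 over all 11848 genes. A p that misses the threshold does not show that a gene did not differ, and a change the size of that of Hmgb1 lies outside the 95% intervals of Hmgb2, Hmgb3, Hmgn1, Hmgn2 and Hmgn3 but inside those of Hmga1 and Hmga2.

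**Figure D4:**
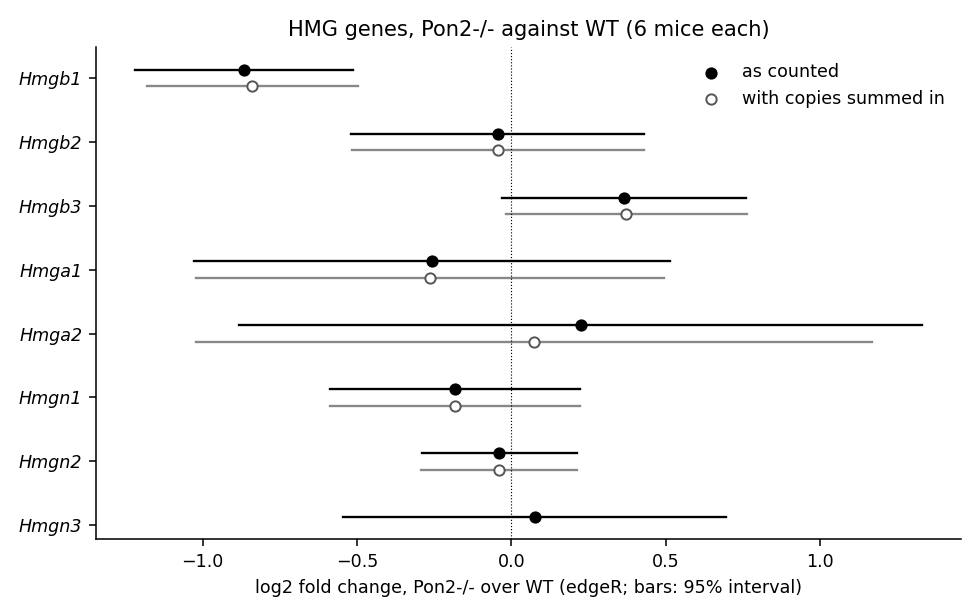
Log2 fold change of Pon2-/- over WT with its 95% interval for the 8 coding HMG genes from edgeR's fit over all genes, as counted (filled) and with the counts of their annotated copies summed in (open; Hmgn3 has no copy). Hmgb1, chosen for its difference, lies at -0.87 and -0.84, and the intervals of the other 7 genes include 0.

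Reads of the other members can also fall on copies. Of windows of 75 bases, 64.3% of the Hmga1 transcript recurred in Hmga1b, 55.9% of Hmgn2 in other genes, all of them in Gm10282, and 24.7% of Hmgb3, 20.8% of Hmgb2 and 4.05% of Hmgn1 in other genes. Hmga2 and Hmgn3 shared none. Values of Hmga1 and Hmgn2 are therefore the ones most exposed to how reads were assigned. Exons of Hmgn3 overlap those of Gm29054 and Gm2065 over 15.2% of their bases, and those of Hmga1, Hmga2 and Hmgb1 overlap other genes over 5.84, 2.07 and 1.57%.

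Most log2 fold changes moved little when each member was summed with its copies. Reads shared by a gene and its copies are missing from both, and the sum cannot bring them back. Neither the sum nor the small counts on copies can therefore show how read assignment affects the values. Hmgb1 moved to -0.84 (SE 0.16), Hmgb3 to 0.37 (SE 0.18) and Hmga1 to -0.26 (SE 0.35), and edgeR called 0 of the 7 others, against 0.194% of the 11840 genes in that table. The copies held little next to their parents: Gm10282 had 354 and 377 counts beside 122052 and 117761 on Hmgn2, Gm6104 had 175 and 214 beside 9654 and 12232 on Hmgb3, Gm7862 had 104 and 93 beside 30370 and 26426 on Hmgn1, and Hmga1b had 81 and 57 beside 3998 and 3374 on Hmga1, each in WT and Pon2-/- mice. The copies of Hmgb2 had 30 and 58 counts in all.

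Hmga2 moved the most, from 0.22 to 0.074 (SE 0.51), through its 1 copy. That copy, the processed pseudogene Gm38158 at chr1:176835724-176836062 in GRCm38, had 69, 85 and 104 counts in WT replicates 1 to 3 and 0 counts in WT replicates 4 to 6 and in all Pon2-/- mice. The genotypes overlap at 0, and Gm38158 was not tested. In WT mice its counts came to 11.0% of the CPM of Hmga2.

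Per length, as CPM per kilobase of merged exons (RPKM), the order of the members differed between the genotypes at Hmgb1 and at the lower end. In WT mice Hmgn2 was highest (356 ± 40.7 RPKM, SD), followed by Hmgb1 (108 ± 12.8), Hmgb2 (104 ± 26.8), Hmgn1 (84.3 ± 12.2), Hmgn3 (64.1 ± 17.6), Hmgb3 (38.4 ± 5.77), Hmga1 (17.0 ± 4.31), Hmga2 (2.60 ± 0.781) and Gm11645 (0.0865 ± 0.109). From Hmgb1 down to Hmgb3 neighbours in this order overlapped between mice, while the gaps after Hmgn2, Hmgb3, Hmga1 and Hmga2 were free of overlap. In Pon2-/- mice Hmgb1 stood in place 5 at 59.4 ± 14.1 RPKM, behind Hmgn2, Hmgb2, Hmgn1 and Hmgn3 and overlapping with the latter and with Hmgb3. Gm11645, at 3.72 ± 1.14 RPKM, stood in place 8, before Hmga2 in place 9 at 3.04 ± 0.923 RPKM, and the ranges of both overlapped.

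Several HMG genes are known to follow proliferation, so the members were set against the summed CPM of 21 genes of S and G2/M phase. That sum ran from 2689 to 4964 CPM in WT mice and from 3042 to 5265 CPM in Pon2-/- mice, and edgeR, DESeq2 and limma voom each called 0 of the 21 genes, against 0.203, 1.79 and 0.194% of all genes they tested. Mki67 had a log2 fold change of 0.71 (SE 0.51) and Top2a of 0.12 (SE 0.25), each with an edgeR adjusted p of 1. Of the minichromosome maintenance genes of DNA replication, named here after their values were seen, Mcm4 had 0.62 (SE 0.41) and Mcm5 0.54 (SE 0.22). Mcm5 alone of the 21 had an unadjusted edgeR p under 0.05 (0.0288, adjusted p 1), against 371 of all 11848 tested genes. Over the 12 mice, on log2 scales, Hmgb2 followed the sum with r = 0.67 (permutation p = 0.0175, adjusted 0.0698 over the 8 coding members) and rho = 0.74 (permutation p = 0.00823, adjusted 0.0486). Hmgn2 did so with r = 0.67 (permutation p = 0.0161, adjusted 0.0698) and rho = 0.71 (permutation p = 0.0122, adjusted 0.0486), and Hmgb3 with r = 0.57 (permutation p = 0.0538, adjusted 0.143) and rho = 0.64 (permutation p = 0.0277, adjusted 0.0737).

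Only the rank correlations of Hmgb2 and Hmgn2 stayed under 0.05 once adjusted. Without the 2 mice farthest from the median sum, r was 0.41 for Hmgb2, 0.75 for Hmgn2 and 0.61 for Hmgb3, so the relation of Hmgb2 leaned on those 2 mice. Within WT mice r was 0.84 for Hmgb2, 0.86 for Hmgn2 and 0.92 for Hmgb3 (exact permutation p = 0.0361, 0.0597 and 0.0139, unadjusted), and within Pon2-/- mice 0.52, 0.55 and 0.48 (exact permutation p = 0.285, 0.244 and 0.338). Without the 2 mice of a genotype farthest from its median sum, r within WT was 0.79 for Hmgb2, 0.87 for Hmgn2 and 0.68 for Hmgb3. Within Pon2-/- mice it was -0.35, 0.61 and 0.78, so the sign for Hmgb2 there rests on 2 mice. For Hmgb1, with all mice and as a description with no test, r was 0.63 within WT and 0.56 within Pon2-/- mice.

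Hmga1, Hmga2, Hmgn1 and Hmgn3 had r between -0.35 and 0.26 over the 12 mice, with adjusted permutation p from 0.540 to 0.911. Within WT mice their r ran from -0.39 (Hmga1) to 0.71 (Hmgn1, exact permutation p = 0.101). Without the 2 WT mice farthest from the median sum, r turned to -0.40 for Hmgn1 and from 0.52 to -0.37 for Hmgn3. Hmgn3 had opposite signs in the genotypes, with r = 0.52 in WT mice (exact permutation p = 0.285) and r = -0.86 in Pon2-/- mice (exact permutation p = 0.0403, unadjusted). Without the 2 mice farthest from the median sum the latter was -0.15 over the other 4, so it rests on those 2 mice. The difference between the genotypes was not tested, and the other 3 genes had r between -0.29 and 0.13 in Pon2-/- mice.

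**Figure D5:**
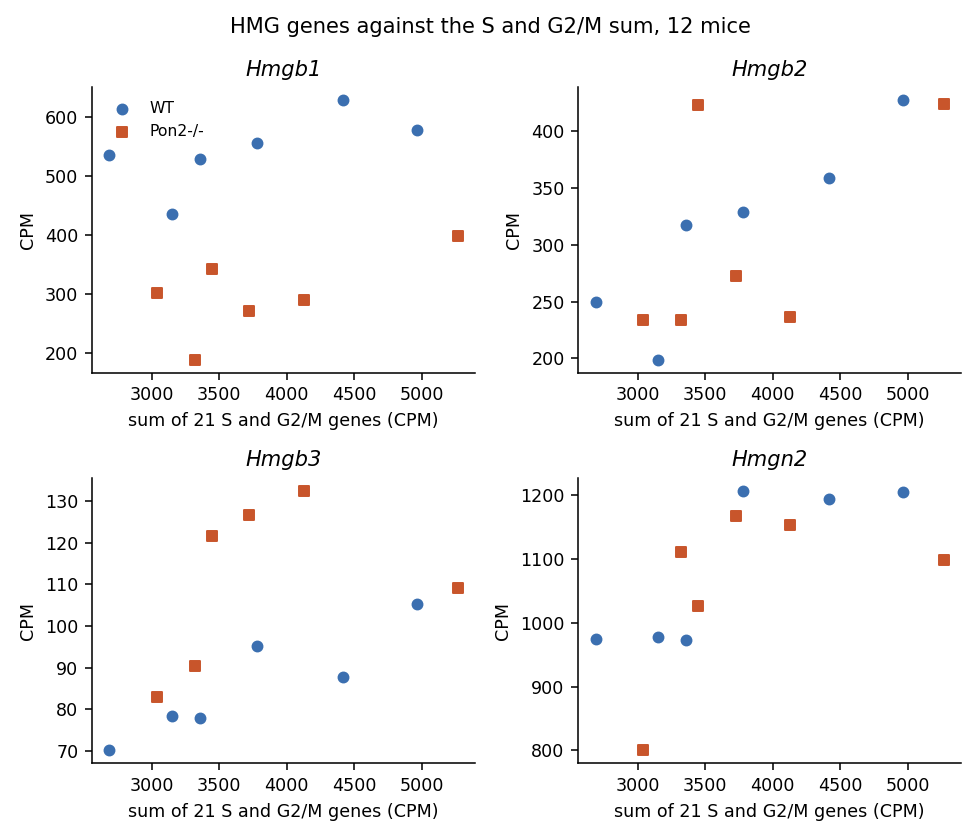
CPM of Hmgb1, Hmgb2, Hmgb3 and Hmgn2 (y) against the summed CPM of 21 S and G2/M genes (x) in 6 WT (blue circles) and 6 Pon2-/- (orange squares) mice; axes do not start at 0. Pearson's r with the sum is 0.67 for Hmgb2, 0.57 for Hmgb3 and 0.67 for Hmgn2, and Hmgb1, chosen for its difference between the genotypes, is plotted as a description.

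After the mean of each genotype was subtracted, members also varied together from mouse to mouse, given here as Pearson's r over 12 mice as a description. The closest pairs were Hmgb3 with Hmgn2 (0.78), Hmgb1 with Hmgb2 (0.74), Hmgn1 with Hmgn2 (0.64) and Hmga1 with Hmga2 (0.60). Hmgb2 with Hmga1 (-0.67) and Hmgb1 with Hmgn3 (-0.63) ran most strongly against each other. Over all 11847 other tested genes the patterns most like that of Hmgb1 were those of Smc6 (0.92), Zscan21 (0.91), Smc4 (0.91), Ubr3 (0.89) and 2700099C18Rik (0.89). Those most like Hmgb2 were Ccdc71l (0.96), 5930420M18Rik (0.89), Pomc (0.88), Polr1b (0.87) and Haus2 (0.87). Spearman's rho ran from 0.63 (Zscan21) to 0.87 (Smc6) for Hmgb1 and from 0.79 (Polr1b) to 0.92 (Ccdc71l) for Hmgb2. Ccdc71l, 5930420M18Rik and Pomc had low levels, with means of 6.23, 5.59 and 4.55 CPM in WT mice and 1.14, 1.39 and 2.43 CPM in Pon2-/- mice. All values of a mouse share its library and its depth. Between the genotypes edgeR, DESeq2 and limma voom called 0 of these 10 genes, against 0.203, 1.79 and 0.194% of all genes they tested. An unadjusted edgeR p under 0.05 was found for 0 of the 10, against 371 of all 11848 tested genes. Smc6 had 89.2 CPM in WT mice and 90.7 CPM in Pon2-/- mice.

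Of 8 further HMG proteins 6 could be tested, and edgeR and DESeq2 each called 0, against 0.203 and 1.79% of all genes. An unadjusted edgeR p under 0.05 was found for 0 of the 6, against 371 of all 11848 tested genes. The median log2 fold change of the 6 was 0.095 beside -0.0092 over all genes. Hmga1b (-0.52, SE 0.33), Hmg20b (0.31, SE 0.30), a subunit of a histone demethylase complex, and Hmgxb4 (0.21, SE 0.53) had the largest values, and Hmgb4, a testis gene, was at 0 in all mice. Of 21 HMG-box proteins of chromatin and transcription 17 could be tested and edgeR called 0. Of their values 11 were positive and 6 negative, beside 5831 and 6017 over all tested genes, with a median of 0.27 for the 17. Sox12 (2.02, SE 1.31), Sox6 (1.48, SE 0.38) and Sox13 (1.37, SE 1.21) had the largest values. Sox6, a regulator of erythroid development, had 53.7 ± 11.5 CPM in WT mice and 150 ± 82.3 CPM in Pon2-/- mice (SD, n = 6 each), at 38.8 to 72.4 and 38.5 to 244 CPM, with an edgeR adjusted p of 0.453. It was the only gene of that list called by DESeq2 (adjusted p 0.0091) and the only one with an unadjusted edgeR p under 0.05. Without Pon2-/- replicate 1 edgeR called it too (log2 fold change 1.68, adjusted p 0.0389).

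Among partners of HMGB proteins the call on Cxcr4 depended on the tool. Of 11 receptors and signalling partners of HMGB1 8 could be tested, with a median of 0.073. Called were 0 by edgeR, 0 by limma voom and 1 by DESeq2, against 0.203, 0.194 and 1.79% of all genes they tested. Cxcr4, which binds the complex of HMGB1 with CXCL12, had 8.33 ± 5.75 CPM (3.06 to 18.5) in WT mice and 35.5 ± 12.2 CPM (16.8 to 52.0) in Pon2-/- mice (SD, n = 6 each). The genotypes overlapped at a log2 fold change of 2.09 (SE 0.60). The unadjusted edgeR p was 0.00355 and the unadjusted two-sided exact permutation p 0.00433. The adjusted p was 0.747 with edgeR, 0.363 with limma voom and 0.000459 with DESeq2, which called Cxcr4 higher in Pon2-/- mice. Among the Toll-like receptors Tlr2 had a log2 fold change of -0.83 (SE 1.39) and Tlr4 of -0.20 (SE 1.695). The 4 tested genes of the SET complex all had values below 0, from -0.27 (Anp32a, SE 0.27), with Set at -0.12 (SE 0.27), Nme1 at -0.078 (SE 0.20) and a median of -0.10. Neither edgeR nor DESeq2 called any of the 4, and 0 had an unadjusted edgeR p under 0.05, against 371 of all 11848 tested genes. Of those 11848 genes 6017 had values below 0, and the shared sign of the 4 was not tested. Of the 7 linker histone genes, which compete with HMG proteins for nucleosomes, 6 were negative and 1 positive, with a median of -0.13, 0 called by edgeR or DESeq2 and 0 at an unadjusted edgeR p under 0.05. H1fx had 0.58 (SE 1.17), Hist1h1d -0.32 (SE 0.55) and Hist1h1c -0.23 (SE 0.47).

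Of 5 genes known to act with Hmga2, Igf2bp2 alone could be tested. Igf2bp2, an RNA-binding protein, had 19.5 ± 14.3 CPM in WT mice and 1.60 ± 2.23 CPM in Pon2-/- mice (SD, n = 6 each). WT mice ran from 2.61 to 41.4 CPM and Pon2-/- mice from 0.0598 to 5.69 CPM, so the genotypes overlapped. Its log2 fold change was -3.60 (SE 1.23), with an unadjusted edgeR p of 0.0113 and an edgeR adjusted p of 1. The unadjusted two-sided exact permutation p was 0.00649, and limma voom's adjusted p was 0.486. DESeq2, which called 1.79% of the genes it tested, called Igf2bp2 lower in Pon2-/- mice (log2 fold change -3.60, adjusted p 0.0201). Hmga2 itself had a log2 fold change of 0.22.

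Neighbouring genes on both chromosomes were called by neither edgeR nor DESeq2 nor limma voom, against 0.203, 1.79 and 0.194% of all genes they tested. Of the neighbours 0 had an unadjusted edgeR p under 0.05, against 371 of all 11848 tested genes. With so few tested neighbours these zeros cannot show whether either locus differed. Within 500 kb of Gm11645 3 of 14 annotated genes could be tested, with log2 fold changes of 0.077 (Snrpb2, SE 0.33), -0.36 (Dstn, SE 0.37) and 0.24 (Rrbp1, SE 0.26). The nearest coding gene, Pcsk2, at a distance of 39097 bases, had 0.526 and 0.520 CPM and was below the filter. Within 500 kb of Hmgb1 8 of 48 genes could be tested and 0 were called, between -0.90 (Gm15411, SE 1.01) and 0.29 (Katnal1, SE 1.21). Uspl1, which overlaps Hmgb1 on the other strand, had -0.35 (SE 0.34), and Alox5ap, the nearest tested gene beyond it, 0.25 (SE 0.22).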

How the data were processed

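RNA-seq was analysed for 6 WT and 6 Pon2-/- mice. The deposited values are raw counts per gene of 1 mouse each. Per the labels and the study's methods, the authors checked reads with FastQC 0.11.5, trimmed them with Trimmomatic 0.36, aligned them to GRCm38.p5 (GENCODE M12) with STAR 2.5.3a and counted reads per gene with STAR, and tested them with DESeq2 1.18.1. STAR counts reads that align to 1 place and 1 gene, so reads shared by a gene and its copies are missing from both. The strand setting is not given in the sources used here. Each file had 1 row without a gene, which held no count and was left out.

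Names, exon lengths and transcripts were taken from GENCODE M21 (49326 of 49585 identifiers matched). Genes were filtered with filterByExpr, scaled by TMM and tested with edgeR 4.0.16 (quasi-likelihood test, R 4.3.3), with Benjamini-Hochberg adjustment over 11848 genes, a false discovery rate of 0.05 and an absolute log2 fold change above 1; the coefficient of biological variation was 99.2%. Single genes were also compared by a two-sided exact permutation test over all 924 splits of the mice (smallest possible p 0.00216) on log2 CPM with a prior count of 2. DESeq2 1.42.0, limma 3.58.1 (voom with quality weights), other filters, scalings, a replicate block and leaving out each mouse were alternatives. The code was tested on simulated data. Correlations over 12 mice used 100000 permutations, those over 6 all permutations.

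Copies were found with minimap2 2.31 and aligned with Biopython 1.88; Tmx3, of which 1 transcript resembles Hmgb2, was left out of the sums after the list was seen. Windows were searched in annotated transcripts on both strands, without genes at the member's own locus, since no genome sequence was used here. Genes named are the members, copies with at least 10 counts (by example), called genes and the 3 with the largest log2 fold changes of each list of other genes of the HMG system, Mki67 and Top2a of the S and G2/M list, the nearest tested neighbours and the 5 genes most like Hmgb1 and Hmgb2. Gm8556, Hmgb4, the marker genes, Mcm4, Mcm5 and the neighbours Uspl1, Katnal1, Rrbp1 and Pcsk2 fall outside this rule and were named after their values were seen. Members and lists were chosen with earlier results of these data known. Same-numbered mice did not deviate together (r 0.000932 to 0.0430 over genes), so replicate numbers were not taken as pairs. Intervals cover counting error where they rest on counts alone.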

Additional observations from a re-analysis of the deposited data

Results flagged for a closer look

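Within each genotype the highest and lowest mouse were compared with the rest (Dixon's ratio against its 95% critical value) for the 9 HMG genes and for the sum of Hmgb1 and Gm11645. Of these 20 groups 0 held a mouse that stood apart.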

How the results depend on the processing

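The number of genes called was 24 as reported, 8 with no filter beyond 1 count, 305 with DESeq2 (137 higher, 168 lower, against 15 and 9), 5 with the replicate block and 20 to 28 when each mouse was left out in turn. The cause was not tested. In each of these fits, copies summed in or not, 0 of the 7 HMG genes other than Hmgb1 and Gm11645 were called, and the lowest adjusted p was 0.322, for Hmgb3 with its copies (0.322 to 1 over its settings). Hmgb1 stayed between -0.97 and -0.77 and Gm11645 between 4.98 and 5.84, the latter at 5.81 with the block and 5.84 without WT replicate 3. The summed CPM of both differed by -264.6 to -220.6 when each mouse was left out, by -247.3 with every annotated copy, by -247.7 with library totals and by -240.1 with DESeq2's size factors. Of the 43 tested other genes of the HMG system, a count recomputed after seeing the data, 0 were called as reported, against 0.203% of all genes. DESeq2 called 3 of them (Cxcr4, Sox6 and Igf2bp2), against 1.79% of all genes it tested. When each mouse was left out, edgeR called 0 to 1 (Sox6 without Pon2-/- replicate 1).

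Directions that turned belonged to genes near 0. When each mouse was left out, Hmgb2 ran from -0.17 to 0.065 (with copies -0.165 to 0.065), positive without WT replicate 1 or Pon2-/- replicate 1, 3 or 6. Hmgn2 ran from -0.071 to 0.030 (with copies the same), positive without Pon2-/- replicate 6. Hmgn3 ran from -0.056 to 0.24, negative without WT replicate 5 or Pon2-/- replicate 3 or 6, and was -0.10 with limma voom. Hmga2 with its copy ran from -0.090 to 0.20, negative without WT replicate 6 or Pon2-/- replicate 2. At 95% identity over 80% of the copy 70 copies were left of 166. Shared windows of Hmgb1 were 40.9% at 50 and 33.1% at 100 bases, those of Gm11645 26.8 and 7.46%. Adding Tmx3 to Hmgb2, an alternative chosen after seeing the data like the CPM of copies and the relation of Hmgb1 with Gm11645 without 2 mice, left Hmgb2 uncalled. With 6 mice a genotype and counts per mouse, copies under 3 counts a mouse cannot be compared.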
